A study of Mus musculus with 2 samples.

Results

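Macrophage genes were examined in total RNA of the mouse adrenal gland. The set is a list of 38 macrophage or macrophage-related genes, and all 38 were found in the gene tables among 55536 annotated genes. Genes were listed by symbol, and the list and its classes were chosen with earlier results of these data known. The list covers growth factors, receptors, identity markers, scavenger receptors, complement and the phagocyte oxidase. Both samples are whole adrenal glands of adult B6CASTF1/J females, a cross of C57BL/6J with the CAST strain in which every cell carries an allele of each parent. The animals were 8 to 10 months old, and the labels name no treatment. Animal 1 gave replicate 1 and animal 3 gave replicate 2, each from 300 ng of RNA with ERCC spike-ins. Although animals and biosamples are numbered apart, both carry 1 donor code, so the spread between the libraries may be partly technical, and with 1 group of 2 libraries no p-value was computed. Values below are TPM, the relative abundance of transcripts corrected for their length, unless another quantity is named.

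Macrophages are tissue phagocytes that take up dying cells, lipoproteins and microbes. Some settle in a tissue before or around birth and renew there, and others arrive later as blood monocytes. Both kinds depend on the receptor Csf1r and its ligands Csf1 and Il34. Resident cells near vessels and in connective tissue often carry Lyve1, Folr2, Timd4, Cd163 and Mrc1, recruited cells often carry Ccr2, and cells loaded with lipid often carry Trem2 and Gpnmb. In the adrenal gland macrophages lie among steroid-making cells that store cholesterol esters.

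The gene tables held 40453707 expected counts in replicate 1 and 34319787 in replicate 2, and a count of 3, taken as the limit of detection, corresponds to 0.0742 and 0.0874 CPM. The tissue markers matched the label, with the cortical gene Star at 6319 and 5650 TPM and the chromaffin gene Th at 363 and 296 TPM. The libraries differed beyond counting noise: over 12645 genes the chi-square divided by its degrees of freedom was 45.2. Of the 7 macrophage markers Cd68, Adgre1, Csf1r, C1qa, C1qb, C1qc and Mpeg1, all 7 reached 1 TPM in both animals, and their summed level was 98.7 TPM in replicate 1 and 102 TPM in replicate 2. In whole glands, fewer cells of a type and less RNA per cell cannot be told apart.

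Macrophage genes as a whole were at low to moderate levels and at similar levels in both animals. In both libraries 31 of the 38 genes stood at 1 TPM or more and 11 at 10 TPM or more. The first limit was met by 23.8% of all annotated genes and by 54.5% of 22015 nuclear protein-coding genes. The median of the 38 was 4.27 TPM in replicate 1 and 3.55 TPM in replicate 2, against 11.4 and 12.2 TPM for protein-coding genes that reached 1 TPM. Their summed level was 354 and 365 TPM. The highest were Lyz2, Il34, Ctss, C1qb and C1qa, and the lowest was Marco, a scavenger receptor, with 1 and 2 expected counts, which is under the limit of detection in both animals.

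Ratios between the libraries are given as the log2 of replicate 2 over replicate 1, on expected counts scaled by TMM factors with 0.5 added. An interval beside a ratio is an exact 95% binomial interval for counting error only. A mean of at least 10 expected counts was reached by 37 of the 38 genes, and their median ratio was -0.06, against -0.01 for all 17751 genes of that count. Of these 37, 30 lay within 0.5 of 0, and 25 lay below 0, where 51.0% of all genes lay. On deposited TPM the median of all genes was 0.10 higher and only 14 of the 37 lay below 0, 22 above and 1 at 0. Relative to the median of all genes, 22 lay below on scaled counts and 21 on TPM. Of the 32 genes that averaged at least 100 counts, 2 lay at least 2-fold apart with TPM intervals that did not overlap, both of them lower in replicate 2, and the same rule called 1.19% of 12645 genes, 0.696% being lower and 0.498% higher. The deposited TPM bounds cover estimation within a single library, and the file does not give their level. Those intervals alone did not overlap for 8 of the 37 and for 22.6% of all genes, a share near that of the members. By the sign of the ratio, 4 of the 8 were lower and 4 higher, where 7.68% and 15.0% of all genes were. No member was 2-fold higher, a limit passed by 4.11% of all genes.

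**Figure D1:**
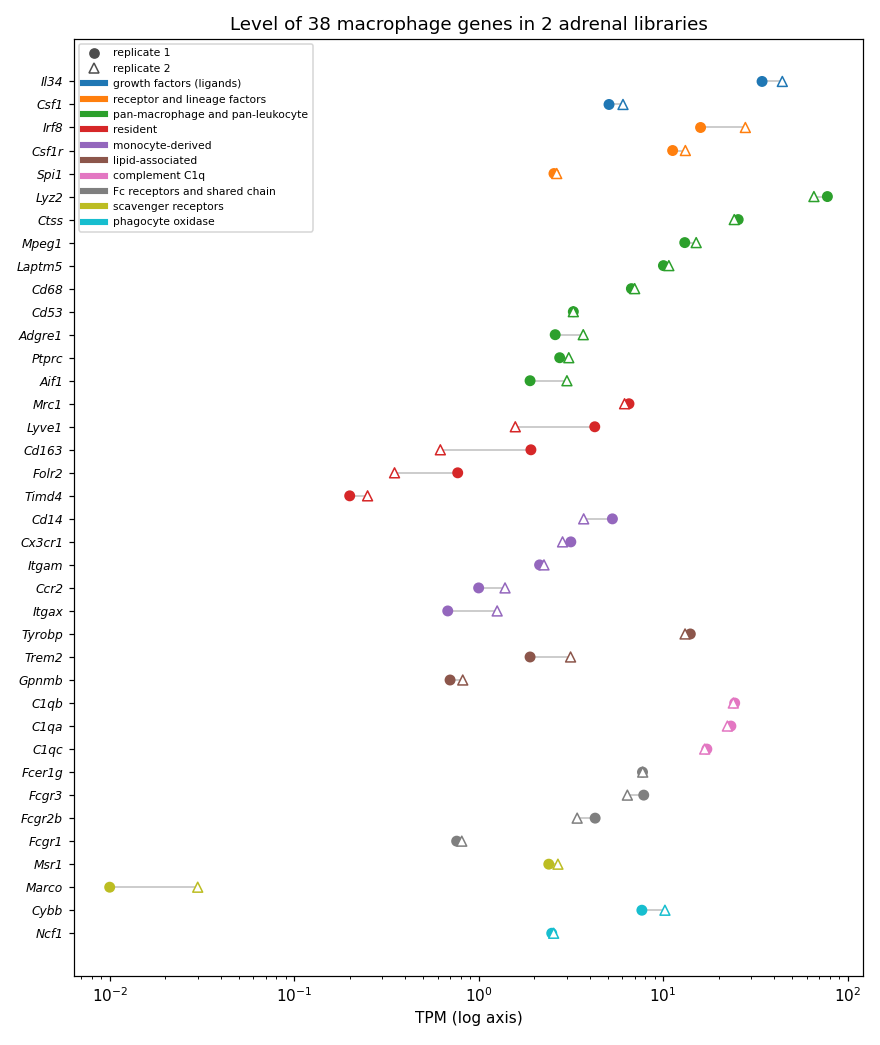
Level of each of the 38 macrophage genes in TPM on a log axis, with a filled circle for replicate 1, an open triangle for replicate 2, a grey line joining them and colours for the gene classes. Most pairs lie close together, while Cd163, Lyve1 and Folr2 lie lower in replicate 2.

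Both ligands of the macrophage growth factor receptor were detected, and Il34 was the higher. Il34 (ENSMUSG00000031750.15, chromosome 8, 110741829 to 110805924, mm10), a cytokine that binds the same receptor as Csf1, stood at 34.4 TPM in replicate 1, against 44.3 TPM in the other animal. Csf1 (chromosome 3, 107741048 to 107760469), which keeps most tissue macrophages alive, stood at 5.09 and 6.06 TPM. Il34 was 6.75 times Csf1 in replicate 1 and 7.31 times in replicate 2, so the order was the same in both animals. Their ratios between the libraries were 0.11 (interval 0.00 to 0.23) for Il34 and 0.09 (-0.07 to 0.25) for Csf1. The TPM intervals of Il34 did not overlap, although its counts were 1304 and 1276, and its ratio on TPM was 0.36. Its mean transcript length was 1075 bases in replicate 1 and 972 bases in replicate 2, and TPM ratios of all genes were also higher by 0.10 in median. The index-based values of Il34 were 30.0 and 31.8 TPM. Of the counts of Il34, the coding transcript Il34-201 took 835 in replicate 1 and 687 in replicate 2, and the longest noncoding one listed took 268 and 319. Other cells than macrophages make both ligands, so their levels do not mark macrophages. The antisense gene Gm15895 overlaps Il34 and stood at 3.06 and 3.12 TPM.

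Other colony-stimulating factors were low or not detected. Csf2 and Csf3, which drive granulocyte and macrophage output, had 0 counts in both animals, where up to 3 counts would not have been told from 0. Of 3 further members of that family with a mean count of 10 or more, 2 lay above 0 and 1 below. Csf2ra, a subunit of the Csf2 receptor, was at 6.87 and 10.9 TPM with a ratio of 0.32. Csf2rb was at 1.58 and 2.61 TPM with 0.31, and Csf3r at 0.95 and 0.54 TPM with -0.57 (-1.08 to -0.09). None of the 3 was 2-fold apart.

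The receptor and the lineage factors differed in how far the animals lay apart. Csf1r, the tyrosine kinase receptor of Csf1 and Il34, was at 11.3 and 13.2 TPM, with a ratio of -0.01 (-0.12 to 0.11). Spi1, the ETS factor that specifies myeloid cells, was at 2.56 and 2.65 TPM. Irf8 (ENSMUSG00000041515.10, chromosome 8, 120736358 to 120756694), an interferon regulatory factor needed for monocytes and some dendritic cells, was at 16.0 TPM in replicate 1 but 27.9 TPM in replicate 2. Its counts were 1581 and 2313, its ratio 0.69 (0.60 to 0.79) and its TPM intervals did not overlap. Irf8 was thus 1.62-fold higher in replicate 2, the second-highest ratio of the 37 genes and short of 2-fold. The index-based table, made from the reads and a transcript index without the alignments, put it at 16.4 and 25.4 TPM. B cells and dendritic cells also use Irf8. The 5 B cell markers had 84 summed counts in replicate 1 and 106 in replicate 2, a ratio of 0.48, and none of the 5 reached 1 TPM in both. The 6 dendritic cell markers had 929 and 782, nearly all of them from Zbtb46, which endothelium also makes. Their part in the result was not tested. A second coding gene, Gm20388, overlaps Irf8 on the same strand and had 872 and 718 counts.

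The bases upstream of Irf8 are shown because its ratio was the largest of the 3. The promoter table, from RefSeq on GRCm38.p6, matched 29 of the 38 genes, and the 250 bases before each start site were searched on both strands. Adgre1, C1qa, Cd14, Csf1r, Il34, Lyve1, Msr1, Spi1 and Tyrobp had no entry. The motifs were GAGGAA, the core bound by Spi1, and the composite site of Spi1 with Irf8 or Irf4, which is GGAA, any 2 bases and GAAA. The motifs can overlap in GGAA. Capitals in each sequence mark a match to either motif. GAGGAA was found in 14 of 29 windows of macrophage genes (48.3%) and in 23.3% of all 32851 promoter windows. The composite site was found in 3 of 29, those of Fcgr2b, Folr2 and Timd4, and in 2.30% of all. A match describes the letters and is neither a site nor a cause. Upstream of Irf8 the window (chr8:120736108-120736357, plus strand) held no match.
Irf8: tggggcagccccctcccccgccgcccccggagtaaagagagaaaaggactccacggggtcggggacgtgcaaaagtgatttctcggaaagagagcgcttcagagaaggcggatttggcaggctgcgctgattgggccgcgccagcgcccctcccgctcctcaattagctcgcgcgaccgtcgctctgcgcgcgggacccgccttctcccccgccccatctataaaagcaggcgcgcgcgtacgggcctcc

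Markers shared by macrophages or all leukocytes were close to equal in both animals. Lyz2, the lysozyme of macrophages and neutrophils, was the highest gene of the set at 77.7 TPM in replicate 1, against 65.7 TPM in the other. Its ratio was -0.33 (-0.41 to -0.26), and its TPM intervals did not overlap. Ctss, a lysosomal protease of antigen-presenting cells, was at 25.5 and 24.3 TPM. Mpeg1, the pore-forming perforin of phagocytes, was at 13.1 and 15.1 TPM with a ratio of 0.12 (0.03 to 0.20) and TPM intervals apart. Laptm5, a lysosomal membrane protein of blood cells, was at 10.0 and 10.7 TPM, and Cd68, a lysosomal glycoprotein, at 6.73 and 7.01 TPM. Among the remaining markers, Cd53 was at 3.26 TPM in each animal and Ptprc, the phosphatase CD45, at 2.75 and 3.08 TPM. Adgre1, the receptor F4/80, was at 2.60 and 3.69 TPM, and Aif1, a calcium-binding protein also called Iba1, at 1.90 and 3.01 TPM with 40 and 49 counts. For Aif1 the direction depends on the transcripts counted: the gene had a ratio of 0.43, but its coding transcripts had 28.2 and 4.99 counts, a ratio of -2.25. The coding Aif1-203 had 25.8 and 0 counts, whereas the noncoding processed transcript Aif1-202 had 0 and 26.2. Retained-intron transcripts held 29.5% and 36.4% of its counts. All of these counts are small. The 9 genes had a median ratio of -0.03, with a range from -0.33 to 0.43 and none 2-fold apart.

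The counts of Lyz2 were shared with its neighbour Lyz1, the lysozyme of Paneth cells. Expected counts were whole numbers for 33 of the 38 genes, and 5 were not whole, Lyz2, Ccr2, Itgax, Fcgr2b and Fcgr3. The 3676 and 2640 counts of Lyz2 and the 258 and 204 of Lyz1 add up to the whole numbers 3934 and 2844. The summed pair had a ratio of -0.32, close to that of Lyz2 alone. The longest coding stretch that Lyz2-201 and Lyz1-201 share is 118 bases of exons 2 to 4 (Lyz2, chr10:117278175-117280666, minus strand, mm10, introns left out), shown because a read inside it cannot be assigned to 1 gene.
Lyz2 and Lyz1: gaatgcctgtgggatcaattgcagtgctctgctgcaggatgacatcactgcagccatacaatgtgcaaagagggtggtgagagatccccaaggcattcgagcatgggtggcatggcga

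Complement C1q was among the highest and most even parts of the set. C1q is the recognition protein of the classical complement pathway, built from 3 chains, and in many tissues macrophages are its main source. C1qa stood at 23.3 and 22.3 TPM, C1qb at 24.4 and 24.0 TPM and C1qc at 17.3 and 16.8 TPM. The ratio of C1qb to C1qc was 1.42 and 1.43 in the 2 animals, and that of C1qa to C1qc 1.35 and 1.33, so the chains kept their order and nearly their proportions. Their ratios between the libraries were -0.15 (-0.30 to -0.01), -0.12 (-0.25 to 0.02) and -0.13 (-0.29 to 0.02). The genes lie side by side on the minus strand of chromosome 4, C1qb from 136880129 to 136886187, C1qc from 136889804 to 136893065 and C1qa from 136895917 to 136898803. The promoter windows of C1qb (chr4:136886201-136886450) and C1qc (chr4:136892915-136893164) are shown because their genes had nearly equal ratios, and each held 1 match to GAGGAA. The windows follow the start sites of RefSeq, and that of C1qc overlaps the GENCODE gene by 151 bases.
C1qb: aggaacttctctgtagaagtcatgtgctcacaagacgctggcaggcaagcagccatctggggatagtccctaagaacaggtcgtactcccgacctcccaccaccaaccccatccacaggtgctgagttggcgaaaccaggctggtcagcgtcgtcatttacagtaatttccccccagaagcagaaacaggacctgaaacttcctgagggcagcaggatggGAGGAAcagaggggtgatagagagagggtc
C1qc: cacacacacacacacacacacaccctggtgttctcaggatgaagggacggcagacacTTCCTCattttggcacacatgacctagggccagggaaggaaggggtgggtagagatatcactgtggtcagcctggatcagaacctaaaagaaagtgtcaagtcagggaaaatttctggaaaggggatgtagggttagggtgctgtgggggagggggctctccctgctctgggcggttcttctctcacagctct

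Other complement genes spanned a wider range, from -0.44 to 1.19. Of 8 further complement genes, 5 lay below 0 and 3 above, with a median of -0.25. C3, the central component, was at 144 and 349 TPM, 2.29-fold higher on scaled counts. The receptors C3ar1 and C5ar1, found on myeloid cells, were at 1.99 and 1.67 TPM and at 2.92 and 2.66 TPM.

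Genes often used for resident macrophages spanned the widest range of ratios among the classes of the 38 genes. Mrc1, the mannose receptor, was the highest at 6.53 and 6.18 TPM, with 1330 and 1049 counts and a ratio of -0.20 (-0.32 to -0.08). Lyve1 (ENSMUSG00000030787.4, chromosome 7, 110850607 to 110863239), a hyaluronan receptor, was at 4.26 TPM in replicate 1 but 1.58 TPM in replicate 2. Its counts were 351 and 143, and on scaled counts it was 2.22-fold lower in replicate 2, a ratio of -1.15 (-1.44 to -0.87). Both the deposited TPM intervals and the 2-fold limit set it apart.

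Cd163 (ENSMUSG00000008845.9, chromosome 6, 124304656 to 124330527), the scavenger receptor for haemoglobin bound to haptoglobin, was at 1.92 TPM in replicate 1 but 0.62 TPM in replicate 2. Its counts were 300 and 75, its TPM intervals were 1.69 to 2.13 and 0.484 to 0.770, and its ratio of -1.85 (-2.24 to -1.49) was the lowest of the 37. The index-based table gave a ratio of -1.60 for Cd163 and -1.24 for Lyve1. Folr2 (chromosome 7, 101839988 to 101857194), a folate receptor, was at 0.77 TPM in replicate 1 but 0.35 TPM in replicate 2. The antisense gene Gm10602 overlaps it with 97 and 116 counts. Folr2 had 29 and 10 counts and a ratio of -1.35 (-2.59 to -0.31), and its TPM intervals overlapped. Timd4, a phosphatidylserine receptor that takes up dying cells, was at 0.20 and 0.25 TPM with 16 and 17 counts, and its interval of -0.84 to 1.31 spans a 2-fold change upwards.

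The 5 genes thus ran from -1.85 to 0.22. Of these, 3 were at least 2-fold lower in replicate 2, where 2.23% of all genes at the same count minimum of 10 were. Below 0 lay 4 of the 5, where 51.0% of all genes lay, and their median was -1.15. The ratio of Mrc1 to Cd163 was 3.40 in replicate 1 and 9.97 in replicate 2, and that of Mrc1 to Lyve1 was 1.53 and 3.91. Cd163 was 0.171 of the level of Csf1r in replicate 1 and 0.0470 in replicate 2. With 1 library per animal, these differences have no replicate check.

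The promoter windows of Cd163 (chr6:124304401-124304650, plus strand) and Folr2 (chr7:101857191-101857440, minus strand) are shown as those of the genes with the 2 lowest ratios. That of Cd163 held no match, and that of Folr2 held 1 match to the composite site. The last 4 bases of the window of Folr2 lie inside the GENCODE gene.
Cd163: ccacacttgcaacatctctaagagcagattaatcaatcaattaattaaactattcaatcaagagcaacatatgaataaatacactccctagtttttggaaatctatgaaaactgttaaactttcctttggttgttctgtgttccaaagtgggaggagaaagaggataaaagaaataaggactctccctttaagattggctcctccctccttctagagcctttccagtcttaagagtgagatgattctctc
Folr2: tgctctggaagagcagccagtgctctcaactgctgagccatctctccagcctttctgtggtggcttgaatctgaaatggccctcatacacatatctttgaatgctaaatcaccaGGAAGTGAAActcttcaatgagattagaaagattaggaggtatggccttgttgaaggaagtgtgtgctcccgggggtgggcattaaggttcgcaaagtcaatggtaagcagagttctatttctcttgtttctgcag

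The transcripts of Cd163 and Lyve1 had unequal ratios. The coding transcript Cd163-201 had 263 counts in replicate 1 and 54.3 in replicate 2, and the retained-intron transcript Cd163-203 had 36.5 and 20.7. Retained-intron transcripts thus held 12.2% of the counts of Cd163 in replicate 1 and 27.6% in replicate 2, and the coding counts alone had a ratio of -2.12. For Lyve1 the coding transcript Lyve1-201 had 313 and 142 counts, a ratio of -0.99, and the retained-intron transcript Lyve1-202 had 37.6 and 0.87. The index-based table put Lyve1-202 at 26.4% and 18.5% of the gene, so its low count in replicate 2 rests on the alignment-based table.

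Further genes often found in resident macrophages were mostly lower in replicate 2 as well, by less. Of 13 such genes, 11 had a mean count of 10 or more, of which 10 lay below 0, with a median of -0.38. The most abundant, Gas6 at 150 and 202 TPM and Selenop at 128 and 96.3 TPM, are secreted proteins that many cell types make. Pf4, a chemokine of platelets and some macrophages, had a ratio of -1.10 on 41 and 17 counts and was the only one of the 11 at least 2-fold apart. F13a1, the chain of a clotting factor that macrophages also make, had -0.71 with TPM intervals apart, while Stab1, a scavenger receptor shared with endothelium, had -0.12.

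Markers of some other cell types were lower in replicate 2 as well, and their part in the result was not tested. All 6 adipocyte markers were lower in replicate 2, with a median ratio of -1.06 and a summed level of 1052 TPM in replicate 1 and 532 TPM in replicate 2. None of the 6 was at 0, and Adipoq was at 105 and 53.7 TPM. All 5 fibroblast and capsule markers were lower too, with a median of -0.59 and a summed level of 131 and 87.5 TPM. Mast cell markers had a median of -0.81 over the 5 of 6 with a mean count of 10 or more, with summed levels of 5.35 and 3.96 TPM. Lymphatic endothelium, which also makes Lyve1 and Mrc1, had 5 markers with a median of -0.14 and a summed level of 28.3 and 26.3 TPM. Within that list 4 of the 5 lay below 0. Prox1, a transcription factor, had 0.02 (14.2 and 15.6 TPM), Flt4 -0.14 (-0.25 to -0.04) and Reln -0.14. Pdpn had -0.54 (-0.89 to -0.19) at 2.74 and 2.01 TPM. Ccl21a, a chemokine of lymphatic vessels and lymph nodes, had -2.76 (3.50 and 0.54 TPM). Its 104.85 and 13.62 counts were not whole, so its reads were split with other genes and its value is uncertain. Blood endothelial markers had a median of -0.15 and the cortical markers one of -0.01. The summed counts of the NK, B and T cell markers had ratios above 0, at 0.91, 0.48 and 0.22, on few counts.

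**Figure D2:**
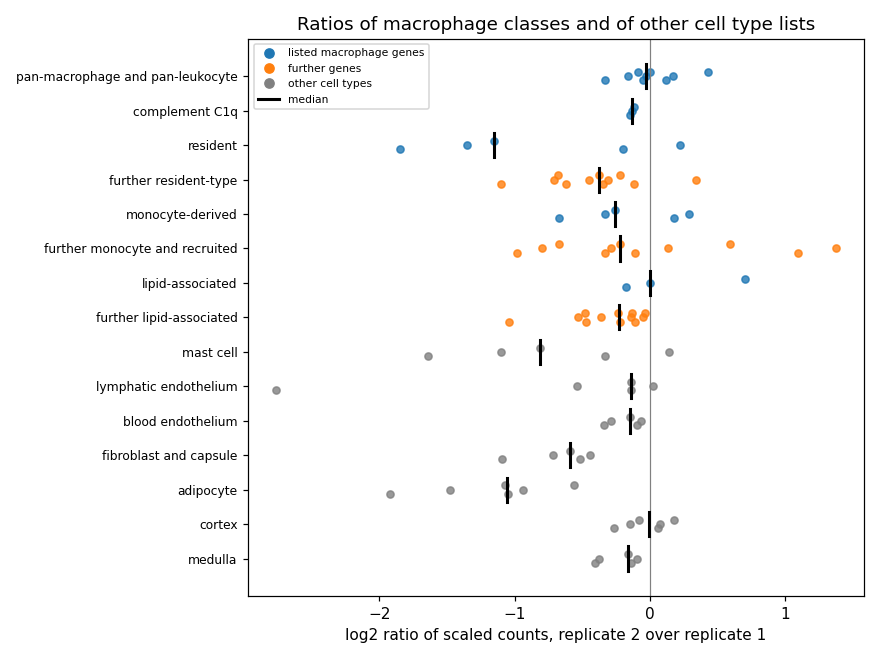
Ratio between the libraries of each gene with a mean count of 10 or more, by class or list, with a black bar at the median. The resident class has its median at -1.15, near the adipocyte markers at -1.06, while the shared macrophage markers and C1q lie near 0.

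Genes linked to monocytes and recruited macrophages were low in both animals. Cd14, the lipopolysaccharide co-receptor, was the highest of the 5 at 5.31 and 3.71 TPM. It was 1.60-fold lower in replicate 2, a ratio of -0.67 (-0.96 to -0.40), with TPM intervals apart. Cx3cr1, the fractalkine receptor of patrolling monocytes and many resident macrophages, was at 3.16 and 2.85 TPM with a ratio of -0.33 (-0.54 to -0.12). Itgam, the integrin CD11b, was at 2.14 and 2.26 TPM with a ratio of -0.26 (-0.50 to -0.01) on counts and 0.08 on TPM. Itgax, the integrin CD11c, was at 0.68 and 1.26 TPM, yet its counts were 105 and 116, a ratio of 0.29 (-0.11 to 0.68). The gap between these scales came with a mean transcript length of 4046 bases in replicate 1 and 2878 bases in replicate 2. Ccr2, the chemokine receptor of inflammatory monocytes, was at 1.00 and 1.39 TPM with a ratio of 0.18 (-0.17 to 0.54) in this table and 0.00 in the index-based table. The 5 had a median of -0.26, none was 2-fold apart, and on TPM the median was 0.08.

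The counts of Ccr2 and Itgax were among those that were not whole, so reads were split with other genes and both values are uncertain. Itgax shared reads with Itgad, which took 2.08 and 2.06 counts, so the sum had nearly the same ratio, 0.28.

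Further monocyte genes did not give 1 direction. Of 11 measured, 7 lay below 0 and 4 above, with a median of -0.22. Fn1, the most abundant at 10.4 and 6.79 TPM, is made by many cell types, and Ace was at 3.93 and 3.58 TPM. Spn, a surface glycoprotein of leukocytes, was 2.12-fold higher in replicate 2 on 45 and 87 counts. Ly6c2 and Plac8, typical of inflammatory monocytes, were at 1.40 and 0.75 TPM and at 3.40 and 3.79 TPM. The 6 neutrophil markers had 101 and 66.0 summed counts, of which Csf3r held 93.9 and 57.0, a ratio of -0.57 (-1.08 to -0.09). Of the others, Ly6g and Mpo had 0 counts in both animals, S100a8 had 3 and 1, S100a9 3 and 6 and Elane 1 and 2.

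Lipid-associated genes held 1 gene that was higher in replicate 2. Trem2 (ENSMUSG00000023992.14, chromosome 17, 48346401 to 48354147), a lipid-sensing receptor of macrophages and microglia, was at 1.90 TPM in replicate 1 but 3.15 TPM in replicate 2. Its counts were 85 and 125, and it was 1.62-fold higher in replicate 2, a ratio of 0.70 (0.29 to 1.12) that was the highest of the 37. The TPM intervals of Trem2, 1.55 to 2.49 and 2.61 to 3.88, did not overlap, and the index-based table gave 0.62. Tyrobp, the adaptor through which Trem2 signals and which serves other receptors as well, was at 14.0 and 13.2 TPM with a ratio of -0.18 (-0.46 to 0.09). Gpnmb, a glycoprotein of lipid-laden macrophages and of melanocytes, was at 0.70 and 0.82 TPM with a ratio of 0.00 (-0.48 to 0.47). The median of the 3 was 0.00, and Trem2 was 0.990 of Cd163 in replicate 1 and 5.08 times Cd163 in replicate 2.

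The coding transcripts of Trem2 were higher in replicate 2 in sum, but not each. The coding transcripts summed to 68.7 and 96.6 counts, a ratio of 0.63, made up of 42.6 and 88.4 for Trem2-201 and 26.1 and 8.18 for Trem2-202. The retained-intron transcript Trem2-203 had 16.3 and 28.5. The window upstream of Trem2 (chr17:48346151-48346400, plus strand), shown as that of the gene with the highest ratio, held 1 match to GAGGAA, on the minus strand.
Trem2: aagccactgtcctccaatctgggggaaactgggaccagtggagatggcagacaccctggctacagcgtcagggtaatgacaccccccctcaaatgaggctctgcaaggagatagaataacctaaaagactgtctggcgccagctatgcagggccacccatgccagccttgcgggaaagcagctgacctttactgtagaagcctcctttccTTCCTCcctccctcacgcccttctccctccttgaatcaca

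All 12 other genes linked to lipid-laden macrophages had count ratios below 0, with a median of -0.23, but not all were lower on TPM. The intervals of Spp1 (-0.42 to 0.13) and Fabp5 (-0.45 to 0.01) include 0, and Ctsb and Lipa (95.5 and 98.7 TPM) were higher in replicate 2 on TPM. TPM intervals did not overlap for 7 of the 12, Ctsb among them, where 22.6% of all genes had such intervals. Ctsd and Ctsb, lysosomal proteases, were the most abundant at 537 and 526 TPM and at 534 and 571 TPM, and Lpl, the lipoprotein lipase, was 2.06-fold lower in replicate 2 at 126 and 62.9 TPM. Steroid-making cells, adipocytes and endothelium also make most of these genes, so their levels do not mark macrophages here. Spp1 (osteopontin), which lipid-associated macrophages often make, was at 4.86 and 4.69 TPM.

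In level, the medians of the resident, monocyte and lipid classes lay close together in replicate 1 only. Their medians were 1.92, 2.14 and 1.90 TPM in replicate 1 and 0.620, 2.26 and 3.15 TPM in replicate 2. In replicate 1 the 3 medians thus differed by less than the spread of genes within any of the classes, and in replicate 2 the resident median was the lowest. In ratio between the libraries, the medians were -1.15, -0.26 and 0.00. The difference between the classes was not tested, because each animal has 1 library and genes are not replicates.

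**Figure D3:**
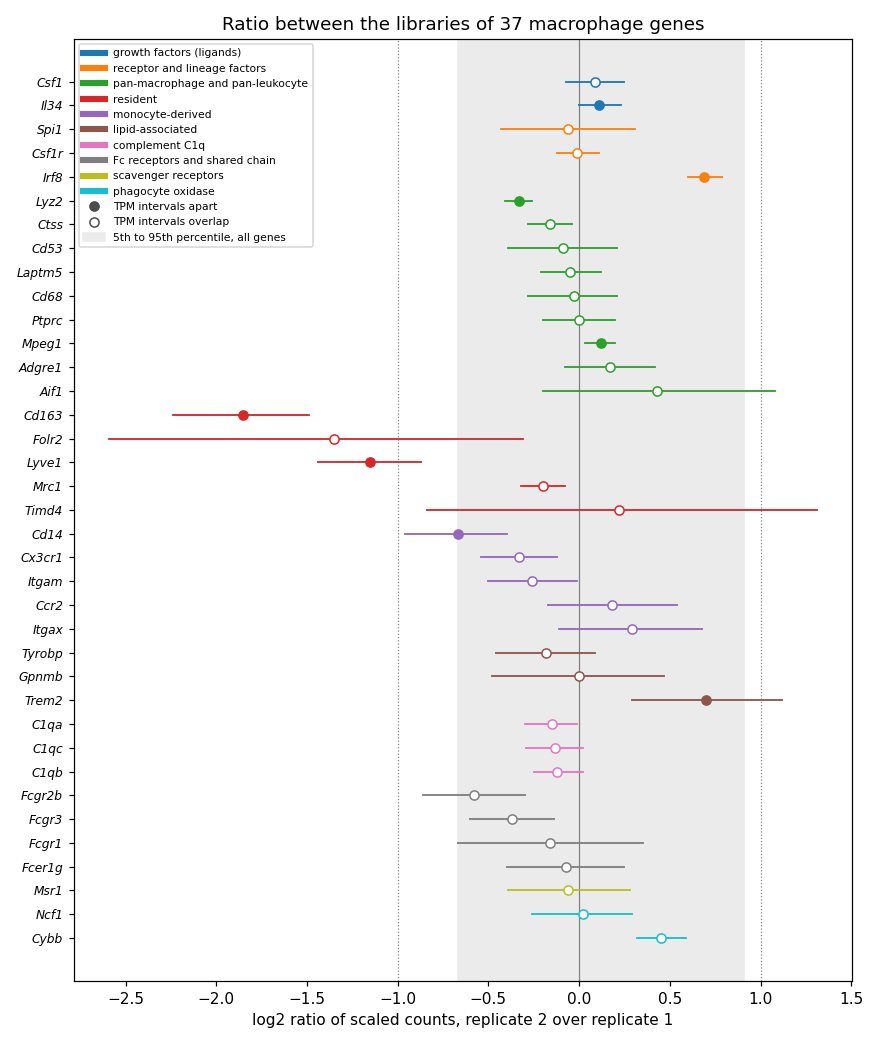
Log2 ratio of replicate 2 over replicate 1 for the 37 macrophage genes with a mean count of 10 or more, with lines for the exact 95% binomial interval, filled points where the TPM intervals do not overlap, dotted lines at 2-fold and a grey band from the 5th to the 95th percentile of all genes. Cd163 at -1.85, Folr2 at -1.35 and Lyve1 at -1.15 lie left of the band from -0.67 to 0.91, and 33 of the 37 genes lie inside it.

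Of the receptors for antibodies and their shared chain, Fcgr3 and Fcgr2b had count ratios below 0 beyond counting error. Fcer1g, the signalling chain shared by activating Fc receptors, was at 7.73 and 7.75 TPM with a ratio of -0.07 (-0.40 to 0.25). Fcgr3, an activating receptor, was at 7.85 and 6.40 TPM, with a ratio of -0.37 (-0.60 to -0.14), and Fcgr2b, the inhibitory receptor, at 4.28 and 3.42 TPM, with -0.58 (-0.86 to -0.30). Both intervals exclude 0 for counting error, while the TPM intervals of both genes overlapped. Fcgr1, the receptor of high affinity, was at 0.76 and 0.81 TPM with a ratio of -0.16 (-0.67 to 0.35). The level of Fcgr3 was 1.83 and 1.87 times that of Fcgr2b in the 2 animals.

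Reads were split between Fcgr2b and Fcgr3, and both genes are therefore uncertain. Fcgr2b had 286 and 173 counts and Fcgr3 had 375 and 263, which add up to the whole numbers 661 and 436. The summed pair had a ratio of -0.46. The coding transcripts Fcgr2b-202 and Fcgr3-201 share a stretch of 129 bases in exons 3 and 4 of Fcgr2b (chr1:170966674-170968081, minus strand, intron left out), shown because reads in it fit both genes. The alignment-based table gave 73.5% and 84.9% of Fcgr3 to the coding Fcgr3-201, whereas the index-based table gave 70.8% and 79.8% to the retained-intron transcript Fcgr3-203, so the main transcript of Fcgr3 depends on the table.
Fcgr2b and Fcgr3: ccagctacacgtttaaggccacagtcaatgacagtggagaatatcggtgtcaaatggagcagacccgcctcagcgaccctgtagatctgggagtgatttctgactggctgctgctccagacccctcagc

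Of 8 further Fc receptor and signalling genes, 4 lay below 0 and 4 above, with a median of -0.03. Fcgrt, the neonatal Fc receptor that many cell types make, was at 36.6 and 31.8 TPM, and Sirpa, an inhibitory receptor of myeloid cells, at 20.1 and 25.1 TPM. None of the 8 was 2-fold apart.

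Scavenger receptors other than those above were low. Msr1, which binds modified lipoproteins, was at 2.40 and 2.69 TPM, with a ratio of -0.06 (-0.39 to 0.28). For Marco, which marks alveolar and marginal zone macrophages, no ratio is given because both animals were at or under 3 counts.

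The phagocyte oxidase was higher in replicate 2 in its catalytic chain. Cybb, the catalytic subunit, was at 7.67 and 10.2 TPM with 837 and 1038 counts and a ratio of 0.45 (0.32 to 0.59), though its TPM intervals overlapped. Ncf1, a cytosolic organiser subunit, was at 2.49 and 2.55 TPM with a ratio of 0.02 (-0.26 to 0.29). Of 4 further oxidase genes, Cyba, the partner of Cybb in the membrane, was at 11.8 and 13.2 TPM with 0.06. The ratios of Rac2 and Ncf4 were 0.51 and 0.44, and none of the 4 was 2-fold apart.

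Genes of antigen presentation by MHC class II, which macrophages share with dendritic and B cells, were slightly higher in replicate 2. Cd74, the invariant chain, was at 150 and 167 TPM and H2-Eb1 at 55.8 and 68.0 TPM. The 4 genes had ratios from 0.04 to 0.15, with a median of 0.11. TPM intervals did not overlap for any of the 4, where 15.0% of all genes were apart and higher. The counting interval of H2-Ab1 (-0.07 to 0.14) includes 0.

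The main transcript of most macrophage genes was the same in both animals. Of the 38 genes, 32 have several annotated transcripts, and for 27 of these the alignment-based table named the same highest transcript in both. Both tables and both animals named the same one for 19, among them Cd163, Lyve1, Trem2, Irf8, Mrc1, Csf1r and Itgax. Csf1r-201 held 74.0% and 54.4% of the gene, and Mrc1-201 held 98.9% and 95.8%. The 5 genes whose highest transcript differed between animals in that table were Aif1, Csf1, Gpnmb, Il34 and Msr1. Csf1 was split between Csf1-201, at 40.9% and 44.5%, and Csf1-202, at 41.5% and 31.6%, and the index-based table gave 72.6% and 56.8% to Csf1-201. Ptprc, with 13 annotated transcripts, kept Ptprc-203 on top at 37.8% and 50.3%, and retained-intron transcripts held 30.6% and 40.7% of its counts.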

How the data were processed

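Total RNA of adrenal glands from 2 female mice, 1 library each, was used. Per the file headers and notes deposited with them, assembly mm10 and annotation M21 were used; the programs, strand settings and handling of CAST alleles count as not given in the sources used here. Deposited gene values are expected counts, not normalized. The authors' TPM is relative to all features of a library, per the file headers, with tRNAs and spike-ins among them. The percent of a gene held by each transcript is a deposited column. Bounds of TPM are the authors' estimation error in 1 library.

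Names came from GENCODE M21, which matched 55536 identifiers. The other 26345 rows (tRNAs, spike-ins, phiX) held 0.226% and 0.245% of counts and were left out. Counts were rounded for TMM factors in edgeR 4.0.16 (R 4.3.3), with DESeq2 1.42.0 as an alternative, and ratios used 0.5 added to scaled counts. No test was run, as each side has 1 library. The biological coefficient of variation over 16966 genes was 0.152. Medians of ratios used genes averaging at least 10 counts, and medians of TPM all genes of a class. The ratio step was tested on simulated data. Intervals came from scipy 1.17.1, tables from pandas 2.3.3 and numpy 2.4.6 in Python 3.11.15, and plots from matplotlib 3.10.9. TPM intervals apart were counted as lower or higher by the sign of the scaled-count ratio. Every macrophage gene is named; from each further list the 2 highest genes and those 2-fold apart are named, except where an item is not reported here, and a few more were named after their values were seen. The genes, classes, lists and alternatives were chosen with earlier results of these data known.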

Additional observations from a re-analysis of the deposited data

How the results depend on the processing

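Rescaled over nuclear protein-coding genes, the median level of all members was 11.0 TPM against 3.91 TPM, and the medians of the resident, monocyte and lipid classes were 3.58, 6.18 and 7.08 TPM against 1.27, 2.20 and 2.52 TPM. The index-based table put the monocyte median at 1.50 TPM. On deposited TPM the monocyte median log2 ratio turned from -0.26 to 0.08, and 14 members lay below 0 in place of 25, where the median of all genes also moved up by 0.10. The 11 members that changed sign on TPM all lay within 0.26 of 0 on scaled counts. Single-animal medians ran from 0.620 to 1.92 TPM for the resident class, 2.14 to 2.26 TPM for the monocyte class, 1.90 to 3.15 TPM for the lipid class and 3.55 to 4.27 TPM for all members. The resident median log2 ratio stayed between -1.17 and -1.07. The count of members past 2-fold with TPM intervals that did not overlap was 2 under each scaling and count minimum tried. Of the member ratios recomputed under 5 settings, 176 stayed within the counting interval, and the 9 that left it did so on deposited TPM. No paired analysis was possible because there is 1 group. Depth limits Folr2, Timd4, Aif1, Gpnmb, Fcgr1 and Marco, which have mean counts under 100.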
